A study of Mus musculus with 8 samples.

Results

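Collagen VI and the collagens that lie on fibrils or beside basement membranes were followed across the cells of mouse skin through 9 genes: Col6a1, Col6a2, Col6a3, Col6a5, Col6a6, Col12a1, Col14a1, Col15a1 and Col16a1. The genes were taken by symbol from the gene lists of the count files, where they make up 9 of 31053 genes, and no measured value entered that rule. Collagen VI is assembled inside the cell from the chains of Col6a1 and Col6a2 with a further chain, encoded by Col6a3 or by the related genes Col6a5 and Col6a6, and is secreted as beaded microfilaments that link cells and basement membranes to the surrounding extracellular matrix (ECM). Col12a1, Col14a1 and Col16a1 encode FACIT collagens, which attach to collagen fibrils and form no fibrils of their own. Col15a1 encodes a multiplexin collagen of basement membrane zones.

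The cells came from dorsal skin of female BALB/c mice aged 14 to 16 weeks, 4 mice injected under the skin with PBMCsec and 4 with vehicle. PBMCsec is the secretome of irradiated human peripheral blood mononuclear cells, that is, the mixture of factors which these cells release into their medium. A biopsy of 4 mm from each mouse was dissociated with enzymes, and RNA was counted per cell with the 10x Genomics 3′ kit, in which a unique molecular identifier (UMI) marks each captured transcript. Neither the time after injection nor the composition of the vehicle is given in the labels, so libraries were compared by treatment alone, and libraries are named by treatment and library number. The methods of the study add a sort for DAPI-negative (viable) cells. They describe the sequenced mouse tissue as scars left by full-thickness wounds. In their injected mice, NaCl, medium or PBMCsec was given by intradermal injection, and scars were taken right after treatment or after a further rest. Whether the groups of 4 compared here mix such times or controls is not given in the labels.

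The count tables held 14753926 to 37880651 UMIs per library, and 6150 of 26231 barcodes passed the filter of the study, 151 to 1659 per library. Of the rest, 16900 barcodes were over the limit of 5% mitochondrial counts. Among kept cells, 4 barcode sequences occurred in more than 1 library, which concerned 8 cells. Cells were grouped into 36 clusters without the member genes, their listed relatives or the fibrillar collagens, though other collagen genes could enter. From marker lists 32 clusters were named. Of these, 6 clusters were fibroblasts (FBs), with 1487 cells in all. All 10 FB markers were found in FBs, from Lox in 51% to Dcn in 99.5% of the cells, against 0.134% to 11.9% of T cells (TCs), whose share serves here as the background that free RNA in droplets gives. FBs were unevenly spread over the libraries. PBMCsec libraries 1 to 4 held 171, 68, 523 and 151 FBs, and vehicle libraries 1 to 4 held 28, 21, 361 and 164. Across 9398 genes the summed FB profiles of vehicle libraries 1 and 2 and of PBMCsec library 2 correlated least with the other libraries, with mean r of 0.88, 0.868 and 0.896 against 0.927 to 0.94 for the remaining 5.

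All members were located on the mouse assembly GRCm38 with the GENCODE M21 annotation. Col6a1 (chr10:76708792-76726168, minus strand) and Col6a2 (chr10:76595762-76623630, minus strand) are neighbors separated by 85.2 kb. Col6a5 (chr9:105856078-105960643, minus strand) and Col6a6 (chr9:105687809-105828160, minus strand) form a second pair, separated by 27.9 kb. Col6a3 stands apart from both pairs on chr1:90765923-90843971 (minus strand). The other genes are Col12a1 (chr9:79598991-79718831, minus strand), Col14a1 (chr15:55307750-55520803, plus strand), Col15a1 (chr4:47208161-47313167, plus strand) and Col16a1 (chr4:130047840-130099283, plus strand). Exons of Col6a6 overlap those of Gm38314 and exons of Col15a1 those of Gm12426, both on the opposite strand, and whether the counting used the strand is not given in the sources used here. Their values therefore carry that reservation.

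The stretches upstream of the 5 collagen VI genes are shown because they belong to the genes of the collagen VI chains, which lie as 2 neighbor pairs and 1 lone gene. They are RefSeq sequences on GRCm38.p6, written 5′ to 3′ on the strand of the gene and ending just before the first annotated exon. Capitals mark the letters GGGCGG or, read on the other strand, CCGCCC, which form a GC box.
Col6a1 (chr10:76726169-76726294): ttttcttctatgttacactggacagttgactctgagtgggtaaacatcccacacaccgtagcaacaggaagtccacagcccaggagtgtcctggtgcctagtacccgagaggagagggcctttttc
Col6a2 (chr10:76623631-76623880): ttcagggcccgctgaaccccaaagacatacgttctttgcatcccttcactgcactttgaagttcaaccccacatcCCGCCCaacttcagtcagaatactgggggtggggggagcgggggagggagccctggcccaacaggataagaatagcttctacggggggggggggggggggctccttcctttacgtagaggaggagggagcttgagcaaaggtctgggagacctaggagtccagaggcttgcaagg
Col6a3 (chr1:90843972-90844221): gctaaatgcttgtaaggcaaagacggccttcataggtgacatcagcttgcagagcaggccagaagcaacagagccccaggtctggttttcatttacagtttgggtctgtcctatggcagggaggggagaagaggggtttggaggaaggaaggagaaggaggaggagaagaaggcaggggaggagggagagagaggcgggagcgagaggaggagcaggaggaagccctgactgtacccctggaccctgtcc
Col6a5 (chr9:105960644-105960893): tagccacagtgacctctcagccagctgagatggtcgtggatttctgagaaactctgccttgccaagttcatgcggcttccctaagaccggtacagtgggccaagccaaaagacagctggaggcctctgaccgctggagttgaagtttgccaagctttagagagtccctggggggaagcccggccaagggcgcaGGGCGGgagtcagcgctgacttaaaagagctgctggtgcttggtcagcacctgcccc
Col6a6 (chr9:105828161-105828335): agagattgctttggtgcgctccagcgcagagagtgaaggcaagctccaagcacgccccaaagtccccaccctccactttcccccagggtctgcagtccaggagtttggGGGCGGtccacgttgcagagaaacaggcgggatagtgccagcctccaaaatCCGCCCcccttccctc

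Windows were found for 7 of the 9 members, and Col12a1 and Col14a1 had none in the table used. Each search covered the 250 bases upstream of the RefSeq start and both strands. A GC box was present upstream of Col6a2, Col6a5, Col6a6 and Col16a1, and of 32.7% of all 32851 windows. The TATA box TATAAA was in none of the 7 member windows and in 12.4% of all windows. CCAAT was found only upstream of Col16a1 and in 33.8% of all windows. The AP-1 letters TGACTCA occurred once, upstream of the RefSeq start of Col6a1, and in 4.46% of all windows. That match lies in bases not printed here, which fall within the annotated span given above for Col6a1. GC content ran from 53.6% for Col15a1 to 75.6% for Col16a1, against a median of 52.4% over all windows. These matches describe letters and do not show that a factor binds there.

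Most transcripts of the collagen VI chains were counted in FBs. Levels are given in CPM, the UMIs of a gene scaled to the total UMIs of the same cells of a library, for libraries with at least 10 such cells. Because the kit counts 3′ ends, CPM of different genes are compared without a correction for length. In FBs Col6a1 reached 1512 ± 514 CPM (SD, n = 8 libraries), Col6a2 1252 ± 610 and Col6a3 1017 ± 189. Col6a5 and Col6a6 were lower in FBs, at 303 ± 257 and 116 ± 37.3 CPM. Of all UMIs of these 5 genes in kept cells, 93.1% to 98.8% were counted in FBs, a share that also depends on how many cells of each type were captured.

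The same genes were rarely counted in immune cells. In FBs a UMI of Col6a1 was found in 97.4% of cells, of Col6a2 in 95.5%, of Col6a3 in 93.7%, of Col6a5 in 37.9% and of Col6a6 in 46.9%. In TCs the corresponding shares were 1.34%, 1.2%, 1.87%, 0.401% and 0.134%. Depth differed, with a median of 9062 UMIs per FB and 3344 per TC. After thinning every cell to 1000 UMIs the shares in FBs were 60.7%, 51.7%, 49.3%, 13.2% and 11%, while no share in TCs exceeded 0.941%. Dendritic cells (DCs) and macrophages held 0.761 to 6.34 CPM of these 5 genes when pooled over libraries.

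Outside FBs the main chains were found in smooth muscle cells and pericytes (SMCs/PCs) and in unnamed clusters 29 and 22. SMCs/PCs comprised 37 cells, and their pooled levels were 1416 CPM of Col6a1, 962 of Col6a2 and 1340 of Col6a3. Only 1 library held 10 of them, PBMCsec library 3, and its levels were lower, at 944, 708 and 629 CPM. Of the 37 cells 21 were among the highest doublet scores, 11 of them among the 12 cells of that library, and the remaining 16 cells held 1509, 1038 and 1348 CPM when pooled. Col6a6 had 0 UMIs in these cells and Col6a5 was at 45.4 CPM. Cluster 29, with 71 cells led by Slc26a7, Crabp1 and Wif1, carried only Pdgfra of the FB markers and stayed unnamed. It held 474 ± 225 CPM of Col6a1, 366 ± 90.1 of Col6a2 and 1076 ± 264 of Col6a3 (SD, n = 3 libraries). Col6a5 and Col6a6 had 0 UMIs there, below the floor used here of 3 cells with a UMI, or 4.23% of its cells. The exact 95% binomial interval of that share reached 5.06%. Cluster 22, with 112 cells led by Cebpd, Mgll and Mitf, had a median of 1420.5 UMIs per cell, far below that of FBs. It held 274 ± 220 CPM of Col6a1, 186 ± 185 of Col6a2 and 159 ± 83.5 of Col6a3 (n = 5), with 28.8 ± 24.3 of Col6a5, and 38.4% of its cells had a UMI of Col6a1. Endothelial cells (ECs) had 0 CPM of Col6a2 in all 6 libraries with at least 10 of them, and Col6a1 at 8.22 ± 10.4 CPM.

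**Figure D1:**
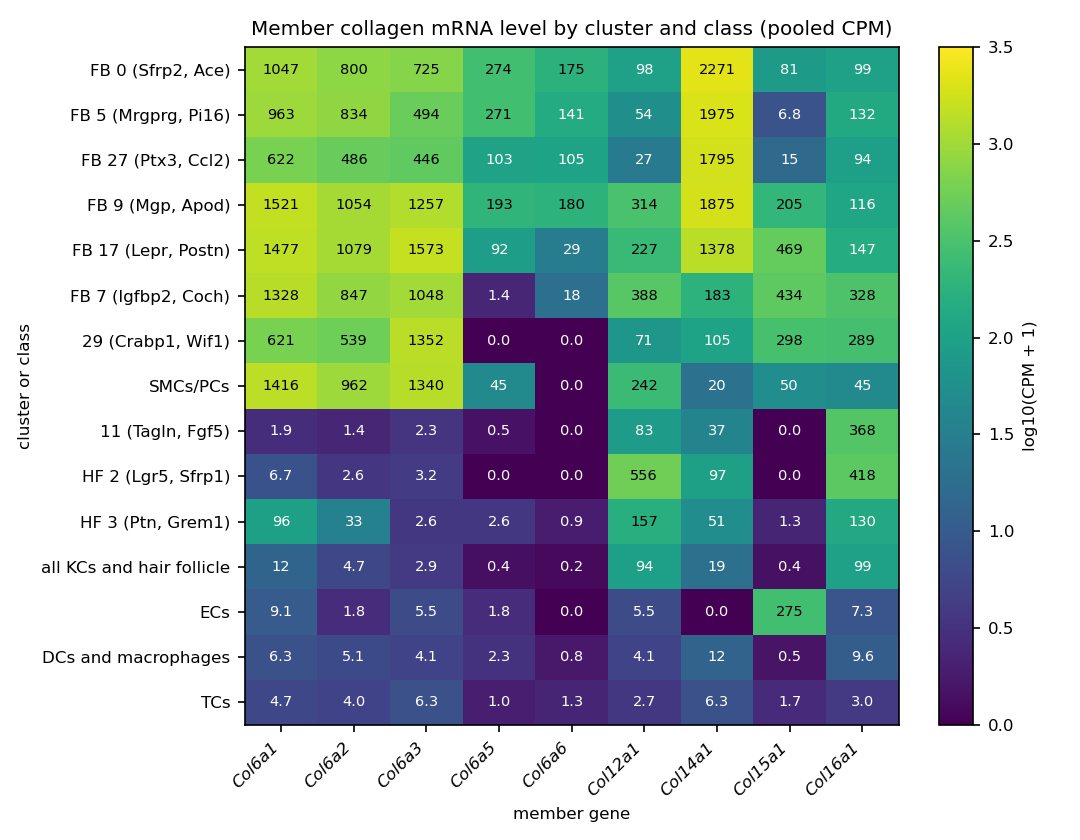
Level of each member gene (columns) in FB clusters, other clusters and cell classes (rows), as CPM over all cells of the row pooled; numbers give the CPM and color its log10 after adding 1. HF marks clusters named from hair follicle markers, and 29 and 11 are unnamed. Col6a1 to Col6a3 fill the FB rows, cluster 29 and SMCs/PCs, Col6a5 is at or near 0 in FB cluster 7 and at 45.4 CPM in SMCs/PCs, and Col12a1 and Col16a1 continue into hair follicle cluster 2.

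The 6 FB clusters differed in their leading genes. Cluster 0 (445 cells) was led by Sfrp2, Fn1 and Ace, cluster 5 (278 cells) by Mrgprg, Smpd3 and Pi16, cluster 7 (261 cells) by Igfbp2, Ednrb and Cyp26b1, cluster 9 (239 cells) by Mgp, Angptl1 and Hmcn2, cluster 17 (173 cells) by Adamts18, Peg3 and Cxcl12, and cluster 27 (91 cells) by Ptx3, Ccl2 and Cxcl1. Cluster 7 carried 5 of the 10 FB markers, the fewest of these clusters, and 2 markers of SMCs/PCs. At a coarser clustering resolution of 0.6, an unnamed cluster of 194 cells was led by Ednrb, Wif1, Crabp1 and Coch. These are leading genes of cluster 7 or of cluster 29, and how many cells of cluster 7 it took up was not counted. The clusters were built from the same cells in which levels are read, so that differences between clusters are described and carry no test. For each, the number of libraries that showed it is given.

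Col6a1 and Col6a2, the chains that every collagen VI molecule needs, were present in all 6 FB clusters. Col6a1 was highest in cluster 9 (1591 ± 323 CPM, SD, n = 6) and cluster 17 (1580 ± 340, n = 6), and each of these neighbors in rank was the higher in 3 of 6 libraries. It was lowest in cluster 27 (715 ± 280, n = 4), which ranked last in 4 of 4 libraries. Col6a2 ran from 1223 ± 451 CPM in cluster 17 to 610 ± 335 in cluster 27. Both genes were counted in like numbers. FBs had 0.735 UMIs of Col6a2 per UMI of Col6a1 when pooled, between 0.68 and 0.995 by library, and the FB clusters lay between 0.638 and 0.866 when pooled. Over 34 clusters, log2(CPM + 10) of the pair correlated with r = 0.993, a description across clusters that share libraries and cell types.

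Col6a3, whose chain completes the common form of collagen VI, varied more between FB clusters relative to Col6a1 than Col6a2 did. Over 34 clusters Col6a3 still correlated with Col6a1 at r = 0.965 and with Col6a2 at r = 0.978. It was highest in cluster 17 (1605 ± 418 CPM, n = 6), above cluster 9 (1282 ± 207, n = 6) in 5 of 6 libraries, and above cluster 5 (500 ± 97.6, n = 6) in 5 of 5. Cluster 5 was below clusters 0, 7 and 9 in 5 of 5 libraries each. Cluster 27 (494 ± 162, n = 4) stood beside cluster 5 and was lower in 2 of 4. The ratio of Col6a3 to Col6a1 UMIs accordingly ran from 0.513 in cluster 5 to 1.06 in cluster 17, with 0.299 to 0.818 by library in cluster 5 and 0.615 to 1.26 in cluster 17. Cluster 29 went further, with ratios of 3.39 and 3.56 in PBMCsec libraries 1 and 3 and 1.13 in vehicle library 3, from 18 to 41 UMIs of Col6a1 per library. In FBs as a whole the ratio was 0.495 and 0.497 in vehicle libraries 1 and 2 and between 0.677 and 0.915 in the other 6. Chains were counted together in most cells: 1329 of 1487 FBs (89.4%) had UMIs of all 3 genes and 7 had none.

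**Figure D2:**
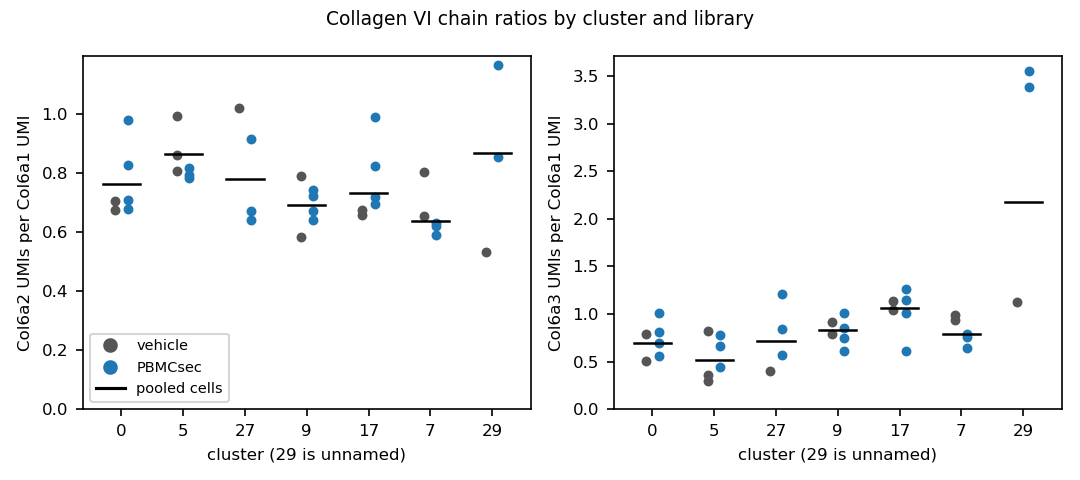
UMIs of Col6a2 (left) and Col6a3 (right) per UMI of Col6a1 in each FB cluster and in unnamed cluster 29, with 1 point per library of at least 10 cells and a bar for all cells pooled. Col6a2 stays between 0.638 and 0.868 per Col6a1 when pooled, while Col6a3 rises from 0.513 in cluster 5 to 2.18 in cluster 29.

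Col6a5 and Col6a6, which encode alternatives to the Col6a3 chain, differed in level between FB clusters, and Col6a5 was near background in cluster 7. The mean of Col6a5 was 318 ± 251 CPM in cluster 5 (n = 6), 270 ± 184 in cluster 0 (n = 6) and 187 ± 44.9 in cluster 9 (n = 6). No cluster led throughout: cluster 0 exceeded cluster 5 in 5 of 5 libraries and cluster 9 in 3 of 6, and cluster 9 exceeded cluster 5 in 3 of 5. The mean of cluster 5 includes vehicle library 1 at 726 CPM, which had too few cells of clusters 0 and 9. Cluster 17 held 82.7 ± 109 CPM, made up of 236 CPM in PBMCsec library 2, 209 in PBMCsec library 3 and at most 22.4 in the other 4. In cluster 7 Col6a5 was at 0 CPM in 5 of 5 libraries. Over all 261 cells of cluster 7 there were 3 UMIs in 1 cell, a share of 0.383% (exact 95% binomial interval 0.0097% to 2.12%), and TCs had 0.401%, so that Col6a5 was not detectable above background there.

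Col6a6 showed a similar order. It reached 176 ± 43.2 CPM in cluster 0, 171 ± 61.6 in cluster 9 and 140 ± 57.3 in cluster 5 (n = 6 each), and cluster 9 exceeded cluster 5 in 5 of 5 libraries. It was 33.9 ± 35.9 CPM in cluster 17 and 19.3 ± 15.9 in cluster 7 (n = 5), 2 clusters that each ranked above the other in some libraries. A UMI of Col6a6 was still found in 16.8% of cluster 17 cells and 9.2% of cluster 7 cells, against 0.134% of TCs. Cluster 0 was above cluster 17 in 6 of 6 and above cluster 7 in 5 of 5 libraries. Over clusters Col6a5 and Col6a6 correlated with r = 0.904. In single FBs 398 cells had UMIs of both genes, 166 of Col6a5 alone and 299 of Col6a6 alone.

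The fibril-associated collagens Col12a1 and Col14a1 lay at opposite ends in FB cluster 7. Among FB clusters, Col12a1 had its highest mean there and Col14a1 its lowest. Col14a1 was at 1463 ± 579 CPM in FBs (n = 8), with more UMIs than Col6a1 in all FBs together (21996 against 15720), and was found in 86% of FBs against 1.74% of TCs. It was high in clusters 5 (1906 ± 586), 0 (1884 ± 891), 9 (1691 ± 972) and 27 (1509 ± 715), lower in cluster 17 (1049 ± 624), and at 188 ± 92.9 CPM in cluster 7, where it was lowest of the FB clusters in 5 of 5 libraries. In cluster 7 the libraries ranged from 93 to 335 CPM. Col12a1 was highest there, at 457 ± 224 CPM, with 760, 208 and 584 CPM in PBMCsec libraries 1, 3 and 4 and 453 and 280 in vehicle libraries 3 and 4. Cluster 7 exceeded clusters 0 and 5 in 5 of 5 libraries, cluster 17 in 4 of 5 and cluster 9, at 233 ± 213 CPM, in 3 of 5. Cluster 27 was lowest in Col12a1 (38.4 ± 42.6 CPM) in 4 of 4. Pooled UMIs of Col14a1 per UMI of Col12a1 were 66.5 in cluster 27, 36.5 in cluster 5 and 23.1 in cluster 0. The ratio was 6.06 in cluster 17, 5.97 in cluster 9 and 0.472 in cluster 7, the only FB cluster with more UMIs of Col12a1. By library it ran from 17.9 to 183 in cluster 27, where libraries held 1 to 11 UMIs of Col12a1. It ran from 20.4 to 208 in cluster 5, 5 to 50.9 in cluster 0 and 5.5 to 74 in cluster 9. In cluster 17 it was 3.1 to 7.98 and in cluster 7 0.205 to 0.987. Over the 34 clusters the genes correlated with r = 0.72, and 486 FBs had UMIs of both, 73 of Col12a1 alone and 793 of Col14a1 alone.

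Col15a1 and Col16a1 also peaked away from clusters 0 and 5. Col15a1 was at 539 ± 205 CPM in cluster 17 and 411 ± 68.9 in cluster 7, with cluster 17 the higher in 3 of 5 libraries. It was 251 ± 172 CPM in cluster 9, below cluster 17 in 6 of 6 libraries, and 6.47 ± 9.11 in cluster 5, below clusters 0, 7, 9 and 17 in 5 of 5. Cluster 5 held 16 UMIs of Col15a1 in 278 cells. Col16a1 was highest in cluster 7 (322 ± 116 CPM, n = 5), which ranked first in 5 of 5 libraries, with 467, 425 and 273 CPM in PBMCsec libraries 1, 3 and 4 and 220 and 225 in vehicle libraries 3 and 4. The other FB clusters lay between 104 ± 37.6 (cluster 0) and 148 ± 37.6 CPM (cluster 5). Unnamed cluster 29 was at 259 ± 26.4 CPM (n = 3).

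**Figure D3:**
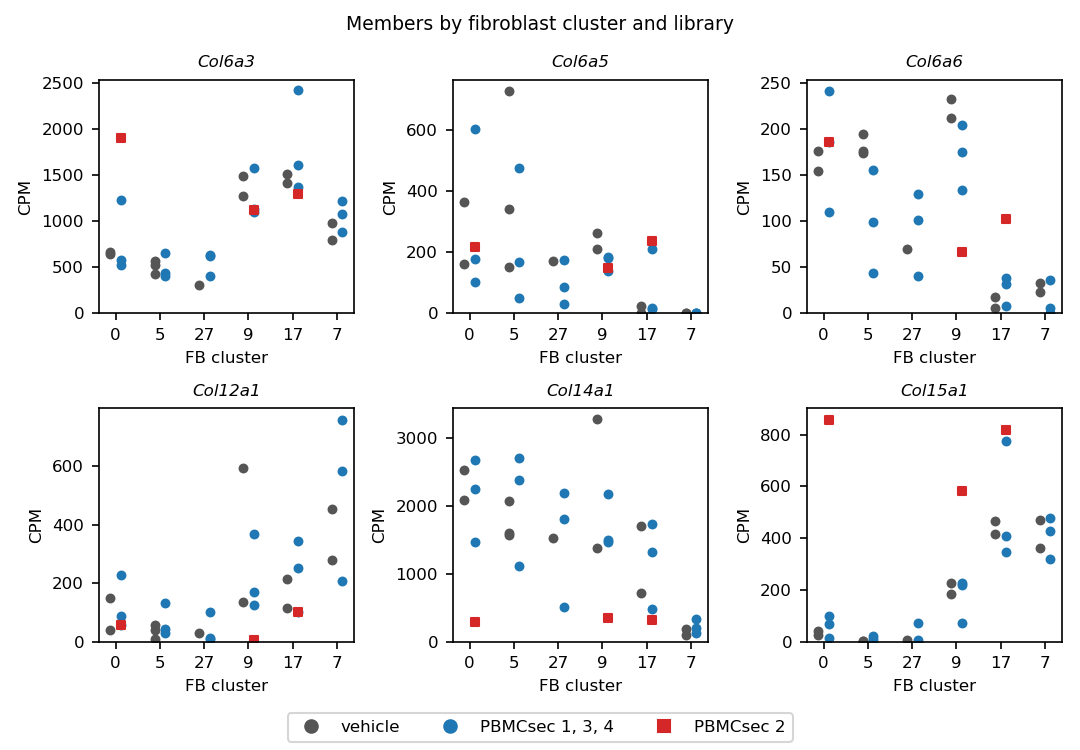
CPM of 6 members in the FB clusters (horizontal axis, cluster number), with 1 point per library of at least 10 cells; gray, vehicle; blue, PBMCsec libraries 1, 3 and 4; red squares, PBMCsec library 2. Col14a1 is low and Col12a1 high in cluster 7, Col6a5 is at 0 there, and PBMCsec library 2 lies low in Col14a1 and high in Col15a1 in each of the 3 clusters where it had at least 10 cells.

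PBMCsec library 2 stood apart within clusters. It had 10 or more cells in clusters 0, 9 and 17, with 21, 25 and 11 cells. Vehicle libraries 1 and 2 had fewer than 10 cells in each of these clusters and were not compared there. Its Col14a1 was at 286, 350 and 318 CPM there, below the other 5 libraries in each case (1461 to 2682, 1383 to 3276 and 484 to 1736). Its Col15a1 was at 858, 581 and 819 CPM, above the other 5 in each case (13 to 99.7, 70.7 to 227 and 347 to 777). Without this library the mean of Col15a1 was 48.9 CPM in cluster 0 (184 ± 332 with it), 185 in cluster 9 and 483 in cluster 17. Over all FBs thinned to 1000 UMIs, Col14a1 was found in 25% of cells in PBMCsec library 2 and 33.3% in vehicle library 2. The other libraries lay between 56% and 78.6%. As a summed FB level, given below, Col14a1 was at 1328 CPM in vehicle library 2 and 392 CPM in PBMCsec library 2.

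Outside FBs the FACIT genes were found in epithelial cells and in unnamed clusters. Keratinocytes (KCs) and hair follicle cells, merged into 1 epithelial class of 2625 cells, held 76.1 ± 42.5 CPM of Col12a1 and 98 ± 24.2 of Col16a1 (n = 8), with 18.1 ± 15.8 of Col14a1, 13.4 ± 6.13 of Col6a1 and lower levels of the other members. Epithelial cells gave 46% of all Col12a1 UMIs and FBs 47.4%, and for Col16a1 46.3% and 36%. A UMI of Col16a1 was found in 38.4% of epithelial cells against 59.9% of FBs and 1.07% of TCs, and thinned to 1000 UMIs in 9.7% against 12.9% of FBs.

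Of the epithelial UMIs, a hair follicle cluster held 1738 of 2407 for Col12a1 and 1305 of 2557 for Col16a1. This cluster 2 (318 cells), led by Id4, Gnmt, Scrg1 and Sfrp1 and carrying the hair follicle markers Lhx2, Sox9 and Lgr5, had 796, 564 and 284 CPM of Col12a1 in PBMCsec libraries 1, 3 and 4 and 704 and 445 in vehicle libraries 3 and 4. Of these 5 values, 4 lay within the range of FB cluster 7. Its Col16a1 was at 339, 240 and 365 CPM in the PBMCsec libraries and 465 and 471 in the vehicle libraries, and 88.2% to 96.6% of its cells had a UMI of Col12a1. Col6a1, Col6a2 and Col6a3 were at 6.72, 2.56 and 3.2 CPM when pooled, and Col15a1 had 0 UMIs. Col14a1 was at 36.7 to 173 CPM by library. Unnamed cluster 11 (233 cells), led by Tagln, Dio3 and Acta2, also held both FACIT genes, with 355 ± 42.2 CPM of Col16a1, 105 ± 60.5 of Col12a1 and 0 of Col15a1 (n = 5), and 81.1% of its cells had a UMI of Col16a1. Unnamed cluster 22 held 212 ± 133 CPM of Col12a1, 380 ± 364 of Col14a1 and 117 ± 78.8 of Col16a1 (n = 5). Cluster 3 (313 cells, led by Ptn, Grem1 and Tgm5) was an epithelial cluster with Col6a1, at 58.3 to 127 CPM in 6 libraries, and Col6a2 at 25.1 to 47.7 CPM, but with Col6a3 at 2.64 CPM pooled. At the coarser clustering resolution of 0.6 all 318 cells of cluster 2 fell into an unnamed cluster, and the epithelial level dropped to 28.1 CPM of Col12a1 and 59.4 of Col16a1.

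ECs had 1 member in quantity. Col15a1 was at 276 ± 180 CPM (n = 6 libraries), with 543, 168 and 289 CPM in PBMCsec libraries 1, 3 and 4 and 103, 120 and 432 in vehicle libraries 2, 3 and 4, and was found in 25 of 83 cells (30.1%) against 0.668% of TCs. All 151 UMIs were in 1 of the 2 EC clusters, cluster 34 (34 cells, led by Fabp4, Plvap and Cd36), at 700 CPM pooled and in 73.5% of its cells. Cluster 32 (49 cells), which carried Lyve1, Prox1 and Ccl21a, markers of lymphatic vessels, had 0 UMIs. The floor of 3 cells with a UMI was 6.12% of its cells. No other member exceeded 10 CPM in ECs when pooled.

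The genes most like each member over 34 clusters, by Pearson correlation of log2(CPM + 10) among 12581 genes, are given as a description across clusters that share libraries. Clusters without a library of at least 10 cells were left out. Among them was cluster 34, the EC cluster that held Col15a1, so its level did not enter these correlations. Col6a1 and Col6a2 were both most like Cacna2d1, a calcium channel subunit (r = 0.986 and 0.989), followed by Aspn (0.978) for Col6a1 and the mesenchymal transcription factor Prrx1 (0.988) for Col6a2. Col6a3 was most like Pcolce, the enhancer of procollagen cleavage (0.985), Srpx2 (0.984) and Twist1 (0.981). Col6a5 was most like Pamr1 (0.935), Tmem100 (0.933) and Thbs3 (0.926), and Col6a6 like Tmeff2 (0.977), Itga11, a collagen-binding integrin chain (0.967), and Islr2 (0.964). Col14a1 was most like Serpinf1 (0.96), and Col15a1 like Scarf2 (0.963), Prrx2 (0.957) and Slit2 (0.955). Col12a1 and Col16a1 had weaker nearest genes, Dkk3 (0.881) and Gas1 (0.859), and correlated with each other at 0.819. The lowest member pair was Col6a5 with Col16a1 (0.361).

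The comparison of PBMCsec with vehicle asked whether injection of the secretome changed these genes. In FBs, edgeR called 0 of the 9 members at an adjusted p under 0.05, where 0% of 9398 genes were called. At an unadjusted p under 0.05 it found 1 member, Col6a5, beside 2.4% of all genes (100 lower and 126 higher). DESeq2 and limma voom also called 0 genes, with 88 lower and 98 higher and with 112 lower and 132 higher at that unadjusted threshold, among them 2 members by DESeq2 and 0 by limma voom. The PBMCsec and vehicle libraries did not separate in any of the 9 members, while 1.77% of all genes had groups that do not overlap. Of the members 6 had lower and 3 higher fitted values, with a median log2 fold change of -0.18 against 0.00 over all genes. Values per library below are CPM scaled by the TMM method. They are taken over the UMIs of the genes tested, not over all UMIs as above. Permutation tests are exact and two-sided over 70 labellings, of which the smallest possible p is 0.0286.

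Col6a5, an alternative collagen VI chain, had the lowest fitted value. It was at 303, 203, 144 and 65.8 CPM in PBMCsec libraries 1 to 4 and at 727, 693, 188 and 124 CPM in vehicle libraries 1 to 4. The high values were vehicle libraries 1 and 2, with 28 and 21 FBs, and the remaining vehicle values lay within the PBMCsec range, so the groups overlapped. The log2 fold change was -1.23 (SE 0.57, edgeR p = 0.0495, adjusted p = 0.9998), and the exact permutation p was 0.257. It was -0.80 without vehicle library 1. Among libraries numbered 1 and 2 it was -1.49, and among those numbered 3 and 4 it was -0.55. At 4 of 4 library numbers the PBMCsec value of Col6a5 lay below the vehicle value. With library number as a block in the fit, its unadjusted edgeR p was 0.0016 and its adjusted p 0.9998. The labels do not say whether equal numbers pair mice. Counted as cells, after thinning to 1000 UMIs, Col6a5 was found in 10.3% ± 3.25 of FBs after PBMCsec and 23.3% ± 13.3 after vehicle (SD, n = 4 each, exact permutation p = 0.143), and without thinning in 35.7% and 47.5% (exact permutation p = 0.0857). Without vehicle library 4 the difference of thinned shares was -17.5 percentage points, with an exact permutation p of 0.0286, the smallest that 35 labellings allow. With the same weight for each of the 5 FB clusters that had enough libraries, the mean difference of log2(CPM + 20) was 0.020. This is another measure than the edgeR value, and cluster 27 was left out. Cluster 7, at 0 CPM in its libraries, added a difference of 0. Vehicle library 1 entered this mean only through cluster 5 and vehicle library 2 not at all.

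Col12a1 and Col15a1 had fitted values of opposite sign, and neither passed the test. Col12a1, a FACIT collagen of tissues under tension, was at 256, 46.9, 147 and 195 CPM after PBMCsec and at 363, 617, 250 and 101 CPM after vehicle. Vehicle library 2 was the highest, PBMCsec library 2 the lowest, and the groups overlapped. Its log2 fold change was -0.97 (SE 0.52, edgeR adjusted p = 0.9998), with -0.50 without vehicle library 2, -1.67 among libraries 1 and 2 and -0.05 among libraries 3 and 4. Col15a1 was at 169, 687, 136 and 235 CPM after PBMCsec and at 53.7, 132, 196 and 176 CPM after vehicle. The high value was PBMCsec library 2 alone, and the groups overlapped. Its log2 fold change was 1.06 (SE 0.50, edgeR adjusted p = 0.9998), 0.30 without PBMCsec library 2, 2.25 among libraries 1 and 2 and -0.01 among libraries 3 and 4.

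Col14a1, the FACIT collagen most abundant in FBs, was low in the same library. It was at 1785, 392, 2043 and 1027 CPM after PBMCsec and at 2015, 1328, 1722 and 1454 CPM after vehicle. The log2 fold change of -0.31 (SE 0.39) became -0.01 without PBMCsec library 2, and the groups overlapped. Markers of KCs summed to 181 to 505 CPM in FBs after PBMCsec and 239 to 676 after vehicle, and those of SMCs/PCs to 50.6 to 720 and 11.9 to 1032, so that these sums overlapped too, and their part in these values was not tested.

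The main chains of collagen VI overlapped between the treatments. Col6a1 was at 1553, 2038, 914 and 1250 CPM after PBMCsec and at 1895, 2430, 1239 and 967 CPM after vehicle. Col6a2 was at 1198, 1726, 630 and 850 CPM and at 1784, 2417, 865 and 716 CPM. In both groups libraries 1 and 2 were above libraries 3 and 4 in these genes and in Col6a5, and the cause was not tested. The log2 fold changes were -0.18 (SE 0.32) for Col6a1 and -0.38 (SE 0.40) for Col6a2, and the latter was -0.68 when PBMCsec library 2 was left out and -0.018 when vehicle library 2 was. Col6a3 was at 808 to 1456 CPM after PBMCsec and 885 to 1209 after vehicle (0.15, SE 0.23). Col6a6 was at 76 to 140 CPM and 50.4 to 153 (0.03, SE 0.29), and Col16a1 at 102 to 194 CPM and 124 to 220 (-0.02, SE 0.25). Exact permutation p for these 5 genes ranged from 0.514 to 0.857.

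**Figure D4:**
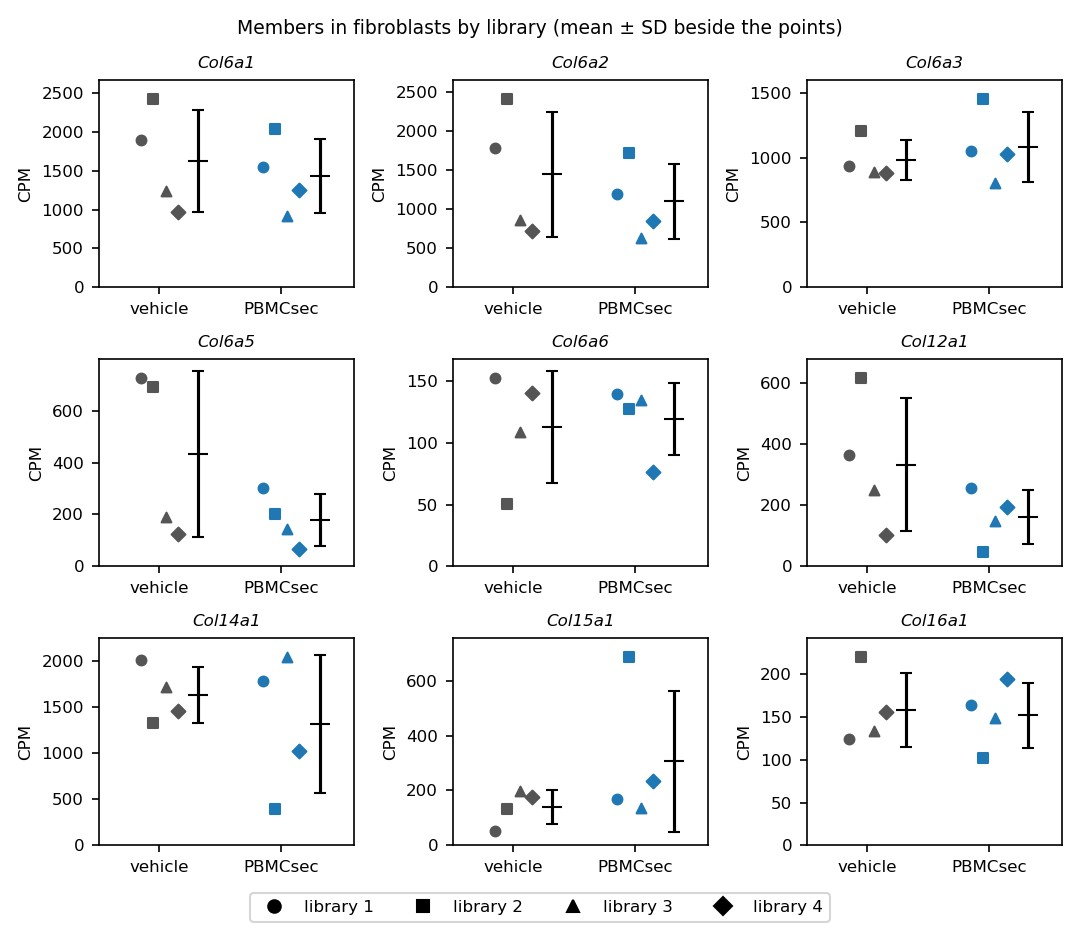
TMM-scaled CPM of each member in FBs, 1 panel per gene; symbols mark the library number, gray is vehicle and blue PBMCsec, and the black bar beside each group gives the mean and SD of 4 libraries. The groups overlap in all 9 panels, Col6a5 is highest in vehicle libraries 1 and 2 (727 and 693 CPM), and PBMCsec library 2 is lowest in Col14a1 (392 CPM) and highest in Col15a1 (687 CPM).

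**Figure D5:**
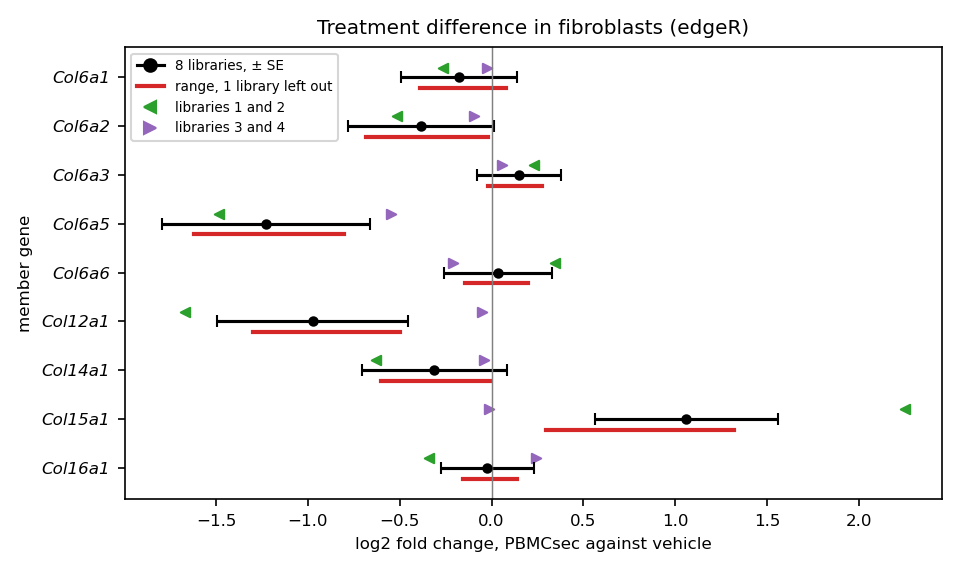
Log2 fold change of each member in FBs, PBMCsec against vehicle, from edgeR over 8 libraries (black, with SE), its range with 1 library left out (red line), and the values from libraries 1 and 2 (green) or 3 and 4 (purple) alone. Col6a5, Col12a1 and Col15a1 lie farthest from 0, at -1.23, -0.97 and 1.06, and for these 3 the values from libraries 3 and 4 are nearer to 0.

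Only 1 FB cluster had at least 10 cells in 3 libraries of each group. In cluster 5, edgeR called 0% of 4776 genes and 0 of the 8 members tested (DESeq2 also called 0), with 2.2% of genes at an unadjusted p under 0.05. Col6a6 was the member among them. It was at 107, 169 and 50.2 CPM in PBMCsec libraries 1, 3 and 4 and at 204, 183 and 199 CPM in vehicle libraries 1, 3 and 4. All PBMCsec values were below all vehicle values, and groups that do not overlap occurred in 7.75% of the genes tested. The log2 fold change was -0.76 (SE 0.34, edgeR adjusted p = 0.9999), and the exact permutation p was 0.1, the smallest that 20 labellings allow. The fitted value was -1.30 without PBMCsec library 3 and -0.44 without PBMCsec library 4. Vehicle library 1 entered with 10 cells and 15 UMIs of Col6a6, and PBMCsec library 4 also had 15 UMIs. With a minimum of 20 cells per library, which left out vehicle library 1, edgeR found 0 members at an unadjusted p under 0.05. Col6a5 (-0.70, SE 0.57) and Col6a2 (-0.63, SE 0.43) had lower fitted values too, and Col12a1 a higher one (0.82, SE 0.56), none of which passed the test. Leaving out PBMCsec library 1 gave -1.66 for Col6a5, -1.20 for Col6a2 and 0.027 for Col12a1. Without vehicle library 1 Col6a5 was at -0.12 and Col6a2 at -0.11, and without vehicle library 3 Col12a1 was at 1.91.

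In the epithelial class 6 members had enough counts, and edgeR called 0 of them and 0% of 10737 genes, with 0 members and 1.61% of genes at an unadjusted p under 0.05 (DESeq2 called 1 gene, no member). Col12a1 was at 137, 33.6, 58.5 and 68.3 CPM after PBMCsec and 21.1, 93.1, 130 and 69.5 after vehicle, with groups that overlapped (log2 fold change -0.14, SE 0.44). Col16a1 was at 82.3, 121, 58.2 and 118 CPM and at 71.8, 116, 113 and 109 CPM (-0.16, SE 0.26). Col6a1, far lower at 10.9 to 22.4 CPM and 4.23 to 19.7 CPM, had a fitted value of 0.67 (SE 0.37). Cluster 3 held 218 of the 319 epithelial UMIs of Col6a1, and its part of the epithelial cells ran from 0 of 23 in vehicle library 1 to 17 of 60 in PBMCsec library 2, whose part in this value was not tested. The difference of Col6a1 between the groups in FBs and that in epithelial cells lay apart by -1.01 on the log2 scale, with an exact permutation p of 0.0571 and an adjusted p of 0.4 over the 7 such comparisons made, the smallest of them.

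In ECs only Col15a1 had enough counts, from 3 libraries in each group. It was at 815, 246 and 422 CPM in PBMCsec libraries 1, 3 and 4 and at 150, 171 and 626 CPM in vehicle libraries 2, 3 and 4. These values exceed the CPM given earlier because they are taken over the genes tested, which held 54015 of 77388 UMIs in PBMCsec library 1. The groups overlapped, and the log2 fold change was 0.74 (SE 0.56, edgeR adjusted p = 0.965, exact permutation p = 0.4). It was 0.22 when PBMCsec library 1 was left out and 1.62 when vehicle library 4 was, with an edgeR adjusted p of 0.397 for the latter. Cluster 34, which held all these UMIs, made up 5 of 10, 5 of 12 and 7 of 16 ECs in the PBMCsec libraries and 2 of 11, 3 of 14 and 7 of 10 in the vehicle libraries, and its part in the difference was not tested. edgeR called 1 of 1482 genes in ECs (0.0675%), which was no member, and DESeq2 called 1 lower and 7 higher, none of them a member. At an unadjusted p under 0.05 edgeR found 5.26% of genes and 0 members. No member had enough counts in TCs or in DCs and macrophages.

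Genes around these collagens were read from lists of relatives, fibrillar collagens, receptors, matrix partners, processing enzymes and TGFβ signaling. The lists were chosen with earlier results of these data known. Of 67 listed genes 52 were tested in FBs, and edgeR called 0, as did DESeq2 and limma voom. At an unadjusted p under 0.05 edgeR found 3 of them, beside 2.4% of all 9398 genes. With 1 library left out that number ran from 0 to 6. Among fibrillar collagens, which form the fibrils that FACIT collagens bind, 7 of 8 tested genes had lower fitted values (median -0.25), from Col5a3 (-0.66, SE 0.39) to Col27a1 (0.85, SE 0.67). Among collagen receptors 8 of 9 were lower (median -0.28), from the integrin chain Itga2 (-0.80, SE 0.40) to the proteoglycan Cspg4 (0.25, SE 0.46). All 4 collagen proteases were lower (median -0.39), from Bmp1, which cleaves procollagen ends (-0.75, SE 0.33), to Mmp14 (-0.15, SE 0.27). The median over all genes was 0.00.

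The remaining lists went either way. Of 9 matrix partners 4 were lower and 5 higher (median 0.20), from Fn1, fibronectin (-0.86, SE 0.37), to Tnc, tenascin C (0.57, SE 0.82). Of 15 genes of collagen biosynthesis 11 were lower and 4 higher (median -0.11), from the lysyl hydroxylase Plod2 (-1.07, SE 0.61) to the collagen chaperone Serpinh1 (0.58, SE 0.24). Of 6 genes of TGFβ signaling 1 was lower and 5 higher (median 0.08), from the receptor Tgfbr2 (-0.41, SE 0.26) to the ligand Tgfb1 (0.55, SE 0.40). Col18a1, the relative of Col15a1 from which endostatin is released, was the only 1 of 8 listed relatives tested (0.74, SE 0.50). Bmp1, Fn1 and Serpinh1 were the 3 genes at an unadjusted p under 0.05, with an edgeR adjusted p of 0.9998 each.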

How the data were processed

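Single-cell RNA was counted in 8 libraries, 4 per group. The authors deposited whole-number UMI counts per gene and barcode, made with Cell Ranger on mm10. The submitters' processing notes give version 3.0.2, and the published methods name a later one. These files were used as deposited. The filter kept barcodes whose gene number lay between 500 and 4000, whose UMIs did not pass 20000 and whose mitochondrial share did not pass 5% (median 6156 to 9521 UMIs per kept cell by library), and 3 genes (Gm42418, Gm17056, Gm26917) were left out. Intervals and floors cover counting error only.

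Cells were integrated and clustered with Seurat 5.3.0 (R 4.3.3) at resolution 1. The member genes, their listed relatives and the fibrillar collagens were left out of the variable features. Names required 3 or more markers of a class, each present in 25% or more of the cluster's cells and with CPM (plus 10) at least 2 times that of the remaining cells. These limits were chosen with the clusters in view. Scrublet (scanpy 1.11.5) called 25 cells as doublets (0.407%), too few to rely on, so no cell was removed, and 311 cells with the highest scores were left out as an alternative. A gate on FB markers without clusters was another, also with mitochondrial limits of 10% and 20%.

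UMIs were summed per library and cell set with at least 10 cells, and PBMCsec was compared with vehicle by the quasi-likelihood test of edgeR 4.0.16 with TMM scaling and Benjamini-Hochberg adjustment over all genes tested, at 0.05. DESeq2 1.42.0 and limma 3.58.1 were alternatives. Exact permutation tests over libraries were two-sided. The tests across single cells that the study's methods describe were not used, because cells of 1 mouse are not replicates. On simulated counts for the 9398 genes of the FB comparison, 29.5% of changes of 1 and 96.6% of changes of 2 on the log2 scale were recovered. The test also called 5 unchanged genes. Counts were drawn with a spread fitted as a trend over genes, not with the spread of each gene. These shares therefore do not give the chance to find a change in a single member. The p-values measure the spread between libraries.

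The members and gene lists were chosen with earlier results of these data known. All 9 members are named, with up to 3 of the genes most like each and the lowest and highest fold change of each list. The series carries the title of a study on other skin cells, and the labels, not the title, gave the groups.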

Additional observations from a re-analysis of the deposited data

Results flagged for a closer look

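Among 30 groups of 4 libraries examined for a single distant value, 2 held one, and chance gives about 1 in 20 groups. Col6a3 in FBs was at 1209 CPM in vehicle library 2, which held 21 FBs, while the other 3 vehicle libraries lay between 885 and 937 CPM. Col16a1 in the epithelial class was at 71.8 CPM in vehicle library 1, while the other 3 vehicle libraries lay between 109 and 116 CPM.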

How the results depend on the processing

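No member was called in FBs, cluster 5, the epithelial class or ECs under any alternative run. Signs turned where values lay near 0, and also for some values farther from 0. The latter were Col6a2 (-0.38), Col6a5 (-1.23) and Col15a1 (1.06) in FBs and Col15a1 in ECs (0.74), as log2 fold changes of the main fit. With equal weight for each of 5 FB clusters, the mean differences of log2(CPM + 20) were 0.12 for Col6a1, 0.14 for Col6a2, 0.020 for Col6a5, -0.24 for Col6a6 and 0.0060 for Col16a1. From libraries 3 and 4 alone the log2 fold changes in FBs were -0.21 for Col6a6, -0.011 for Col15a1 and 0.24 for Col16a1. Col6a6 was at -0.020 with the marker gate at 10% mitochondrial counts and -0.013 without the highest doublet scores, and Col16a1 at 0.0015 without a filter on low counts. With 1 library left out, values in FBs ran from -0.39 to 0.079 for Col6a1, -0.020 to 0.27 for Col6a3, -0.14 to 0.20 for Col6a6 and -0.16 to 0.14 for Col16a1. In the epithelial class they ran from -0.61 to 0.20 for Col12a1 and -0.31 to 0.026 for Col16a1, and in cluster 5 from -0.20 to 0.15 for Col6a3. The difference in the share of FBs with a UMI, in percentage points, was 0.36 for Col6a1 and 6.26 for Col6a6 without thinning and 0.202 for Col6a3 at 2000 UMIs. With 1 library left out it ran from -8.37 to 1.13 for Col6a1, -7.08 to 4.03 for Col6a3, -5.82 to 2.12 for Col6a6, -15.4 to 4.02 for Col14a1 and -0.849 to 3.47 for Col16a1, and 0 to 1 members passed. The cause of these changes was not tested. Clustering at resolution 0.6, DESeq2 in clusters and other classes, and levels without PBMCsec library 2 were chosen after seeing the data.

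Groups share library numbers. For each gene the mean of the treatment group was subtracted from log2 CPM, and PBMCsec libraries were then correlated with vehicle libraries. These correlations of deviations were r = 0.18, -0.01, 0.06 and 0.21 for equal numbers in FBs. Among libraries of the other group, 5 of 8 libraries correlated best with their own number there. That count was 8 of 8 in DCs and macrophages, 7 of 8 in TCs and 6 of 8 in the epithelial class. It was 4 of 4 in ECs and 3 of 6 in cluster 5. Each library had 4 libraries of the other group to match, or 3 in ECs and cluster 5. What equal numbers share was not tested. In TCs, where no member was tested, all 4 pairs were over 0.1 (0.32, 0.20, 0.18 and 0.40). The labels tie no number to a shared day or litter, and the numbers were not taken to pair mice in the FB comparison. With the replicate block, Col6a5 was at -1.07 in FBs, where its level was lower after PBMCsec at 4 of 4 numbers. The block moved its unadjusted edgeR p from 0.0495 to 0.0016, with an adjusted p of 0.9998. Col15a1 was at -0.13 in ECs and Col6a3 at -0.022 in cluster 5, and no member was called. In cluster 5 the block gave 3 members at an unadjusted edgeR p under 0.05, against 1 without it. Of all 4776 genes tested there, 78 were lower and 76 higher at that threshold, against 59 and 46 without it.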
